A study of Mus musculus with 6 samples.

Results

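The genes of the insulin-like growth factor (IGF) axis with the growth hormone receptor were read in cultured mouse liver cells: the ligand gene Igf1, the acid-labile subunit gene Igfals, the receptor gene Ghr and the binding protein genes Igfbp1 to Igfbp7. They were chosen by symbol, and all 10 were present among the 52323 genes of the count table and among the 19135 genes that passed the filter on low counts. The cells were damaged hepatocytes (dHeps), isolated from livers that had been injured with carbon tetrachloride (CCl4), and bulk RNA was sequenced after 16 days of culture in serum-free Hepatocyte Maintenance Medium. The question was which of these genes differed between solvent, a cocktail of 3 compounds and a cocktail of 5, and whether the binding proteins that hepatocytes make moved like those that stromal cells make. Each group had 2 libraries, with 65916573 to 69245895 estimated counts per library.

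By their labels, cells of all 3 groups came from AAV-TBG-Cre:Rosa-LSL-tdTomato mice. The study's methods give a C57BL/6 background, an age of 8 to 10 weeks at the start and animals of both sexes. They report no sex differences, and the sex behind each library was not examined here. In these mice a viral Cre under the liver-specific TBG promoter marks hepatocytes with tdTomato. After a washout of 2 weeks from the virus, the mice received CCl4 for 12 weeks before the cells were isolated. The controls thus carried the injury too, and no uninjured cells were analysed here. The DMSO group received solvent. The 3C group received 50 µM CID755673 (a protein kinase D inhibitor), 2 µM GSK429286A (a ROCK inhibitor) and 5 µM ETC-1002 (bempedoic acid). The 5C group received those compounds with 2 µM forskolin (which activates adenylate cyclase) and 5 µM salidroside (a plant glycoside). 3C and 5C were compared with the same DMSO libraries, so these comparisons are not independent of each other. The labels do not say whether the libraries of a group came from separate animals or cultures, and p-values measure the spread between these libraries, which may be technical.

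In the body, growth hormone binds its receptor on hepatocytes, and signalling through JAK2 and STAT5 drives transcription of Igf1 and Igfals. In blood, most IGF-1 travels in a complex with the acid-labile subunit and IGFBP-3 or IGFBP-5. The binding proteins hold IGF away from its receptor or carry it there: hepatocytes make IGFBP-1, which fasting raises and insulin lowers, along with IGFBP-2 and IGFBP-4, whereas IGFBP-3, IGFBP-5, IGFBP-6 and IGFBP-7 come mainly from stellate, endothelial, macrophage and other stromal cells of the liver. The study's single-cell data, however, list Igfbp3 among genes raised in hepatocytes of CCl4-injured mice. Its place among the stromal genes below therefore does not fix which cells its RNA came from. The classes follow general knowledge, and no cell source was measured here for Igfbp4 or any other binding protein.

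Promoter sequence of 4 of the genes is shown because their levels separate the groups or because known regulatory letters lie there. The sequences are RefSeq promoters of the mouse build GRCm38.p6, the bases just before the start of transcription, 5′ to 3′ on the strand of the gene, and positions are counted back from the start. Igfbp1 (chr11:7197537-7197786, plus strand) shows in capitals CAAAACA, the core of the insulin response element that FOXO factors bind, at -108 to -102. It also shows ATTAAC at -56 to -51, the reverse complement of GTTAAT, an arm of the site for the hepatocyte factor HNF1, which thus lies on the other strand. Igfbp4 (chr11:99040994-99041243, plus strand) shows a TATA box, TATAAA, at -28 to -23. Igfbp3 (chr11:7213924-7214173, minus strand), a neighbour of Igfbp1 on the chromosome, held none of the letters searched. Of Igfals a stretch of 29 bases is given (chr17:24878163-24878191, plus strand), with a match to the STAT-type motif TTCNNNGAA in capitals that begins 58 bases before the second of 3 annotated starts.
Igfbp1: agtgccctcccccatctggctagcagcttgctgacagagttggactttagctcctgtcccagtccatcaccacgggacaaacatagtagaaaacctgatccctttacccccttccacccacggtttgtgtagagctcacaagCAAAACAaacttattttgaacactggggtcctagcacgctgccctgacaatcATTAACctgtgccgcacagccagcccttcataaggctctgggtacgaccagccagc
Igfbp4: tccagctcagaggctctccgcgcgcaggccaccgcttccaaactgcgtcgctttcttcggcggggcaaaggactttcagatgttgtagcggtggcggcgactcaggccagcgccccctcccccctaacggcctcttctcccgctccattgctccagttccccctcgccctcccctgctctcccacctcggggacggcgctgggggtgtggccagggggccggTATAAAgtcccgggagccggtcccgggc
Igfbp3: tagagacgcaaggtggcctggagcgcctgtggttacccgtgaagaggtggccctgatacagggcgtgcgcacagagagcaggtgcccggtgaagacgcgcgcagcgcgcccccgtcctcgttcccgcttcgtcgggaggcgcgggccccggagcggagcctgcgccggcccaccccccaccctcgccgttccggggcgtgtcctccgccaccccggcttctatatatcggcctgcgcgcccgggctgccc
Igfals: ctgccaggtgTTCCTAGAAgaggccctgg
All 10 genes matched, with 14 windows of 250 bases, and 6 motifs were searched on both strands of each. CAAAACA stood in 5.56% of 32851 mouse promoter windows of the same length, the forkhead motif GTAAACA in 3.17%, the cyclic AMP response element TGACGTCA in 1.55%, TTCNNNGAA in 7.02%, TATAAA in 12.4% and GTTAAT in 6.43%. TTCNNNGAA was also in the first Igfals window at -236 to -228, GTAAACA in the second Igfals window at -242 to -236 on the other strand, and TATAAA on the other strand in the second Ghr window at -188 to -183 and in the Igfbp6 window at -148 to -143. The windows of Igf1, Igfbp2, Igfbp3, Igfbp5 and Igfbp7 held none of these letters. A match describes the letters of a window and no binding was measured.

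In both cocktails Igf1 was lower, and Ghr, Igfbp1, Igfbp2, Igfbp4 and Igfbp7 were higher, than in DMSO. A gene passed the test at an adjusted p under 0.05 (edgeR's quasi-likelihood F test, Benjamini-Hochberg over all 19135 genes) and was called when its absolute log2 fold change was also above 1. In 5C against DMSO, 8 of the 10 genes passed, 7 higher and 1 lower, where 28.7% of all genes tested passed (15.6% higher and 13.1% lower), and 1 was called, where 11.7% of all genes were. In 3C against DMSO, 7 passed, 6 higher and 1 lower (24.5% of all genes, 12.7% higher and 11.8% lower), and 3 were called (9.45% of all genes). Between the cocktails 3 passed, 2 higher and 1 lower in 5C (12.7% of all genes), and by edgeR and by DESeq2 0 were called (3.01% of all genes by edgeR), with 6 at an unadjusted p under 0.05 in edgeR. The median log2 fold change of the 10 genes was 0.77 in 5C and 0.80 in 3C against DMSO, beside 0.00 and 0.01 over all genes tested. Replicates did not overlap between the groups for 10 of 10 genes in each cocktail against DMSO (63.1% of all genes in 5C, 61.3% in 3C) and for 7 of 10 between the cocktails (58.0% of all genes). The plot of levels by library shows each gene on its own scale.

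**Figure D1:**
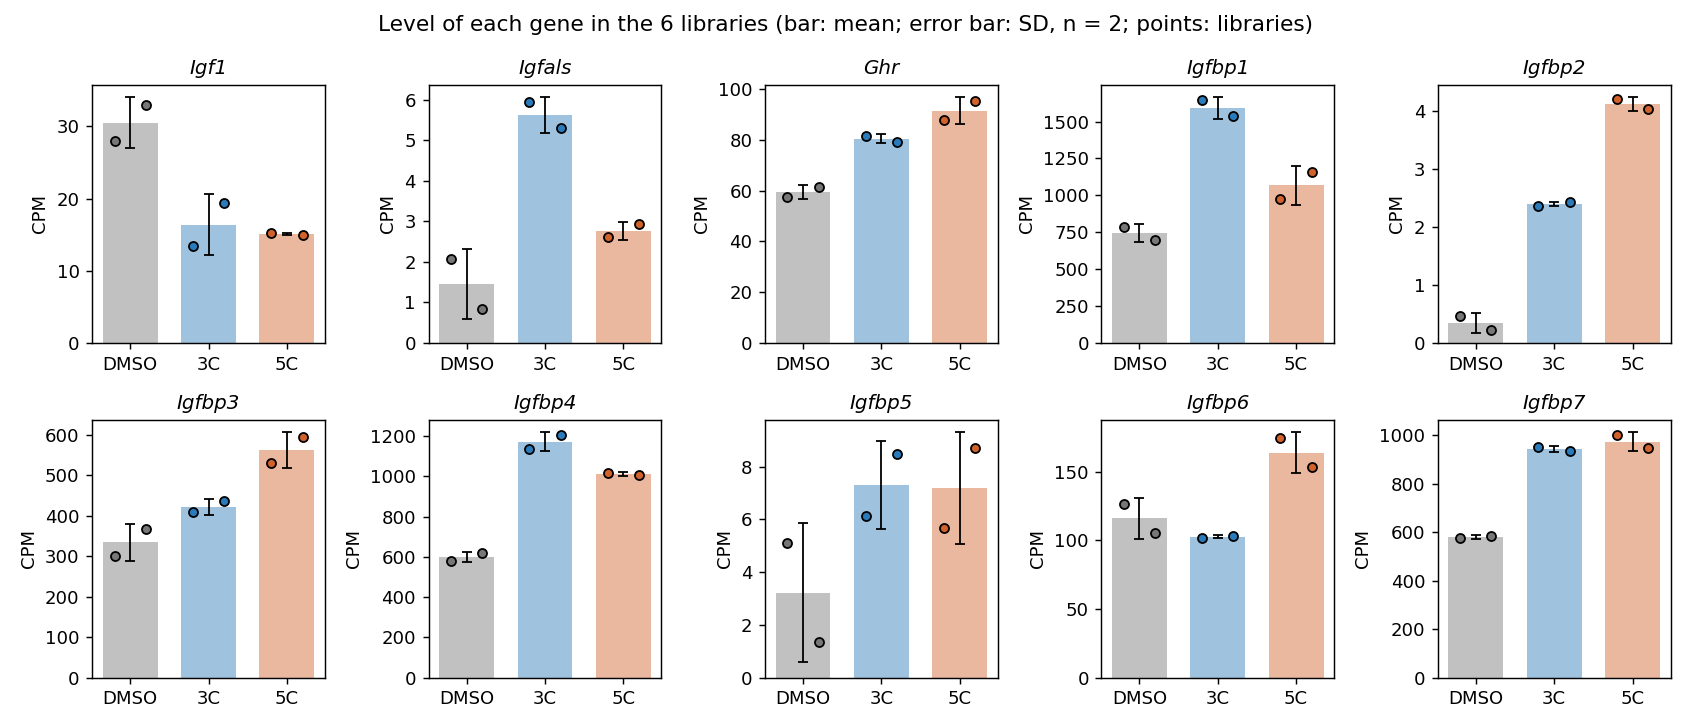
Level of each of the 10 genes in CPM (counts scaled to the library total, vertical axes, each from 0) in DMSO, 3C and 5C, with points for the 2 libraries of a group, bars for their mean and error bars for their SD. Igf1 is highest in DMSO, Igfals, Igfbp1 and Igfbp4 are highest in 3C, and Ghr, Igfbp2, Igfbp3 and Igfbp6 are highest in 5C.

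Igf1 encodes the ligand, the main growth factor that the liver secretes under growth hormone. Its level, in CPM (counts scaled to the library total), was 28.0 and 33.0 in the DMSO libraries, 13.4 and 19.4 in 3C, and 15.2 and 15.0 in 5C. Both DMSO libraries lay above all 4 cocktail libraries, and the 5C libraries lay within the range of 3C. Igf1 fell 2.0-fold in 5C against DMSO (log2 fold change -1.0, SE 0.17, adjusted p = 0.00242), just short of the fold limit and so not called. It fell 1.9-fold in 3C (-0.93, SE 0.17, adjusted p = 0.00415). Between the cocktails the log2 fold change was -0.07, with a 95% confidence interval from -0.46 to 0.32 (adjusted p = 0.874), and it was 0.22 without 3C replicate 2. The deposited FPKM of Igf1 was 5.0 and 8.04 in DMSO, 2.34 and 3.1 in 3C, and 2.12 and 2.82 in 5C. It did not follow the counts closely, which were 1049 and 1036 in 5C. FPKM and counts together imply 4104.4 bases in DMSO replicate 2 and 7179.6 in 5C replicate 1. Macrophages also transcribe Igf1, and the summed level of 10 macrophage markers was lower in the cocktails, at 10750.4 to 11455.0 CPM in DMSO, 3681.8 to 3694.1 in 3C and 2382.8 to 2436.2 in 5C. Of those markers, 8 fell and 1 rose in each cocktail against DMSO, and none was at 0 in any group. Over all genes tested, 13.1% fell and 15.6% rose in 5C, and 11.8% fell and 12.7% rose in 3C. In bulk RNA, fewer cells of a type and less RNA per cell cannot be told apart, and the part of the macrophage markers in the result for Igf1 was not tested.

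Igfals encodes the acid-labile subunit, a hepatocyte product that stabilises IGF-1 in blood. It was scarce, at 2.07 and 0.834 CPM in DMSO, 5.93 and 5.31 in 3C, and 2.61 and 2.92 in 5C. The 3C libraries were the highest, the 5C libraries came next, and the DMSO libraries differed from each other by more than the libraries of either other group. Igfals rose 3.79-fold in 3C against DMSO (log2 fold change 1.92, SE 0.39, adjusted p = 0.00594). In 5C against DMSO the log2 fold change was 0.95 (SE 0.38, adjusted p = 0.0997). It was 1.73 without DMSO replicate 1, a fit that leaves only the lower DMSO library. Between the cocktails it was -0.97 (95% confidence interval -1.82 to -0.13, adjusted p = 0.14), and the adjusted p was 0.0224 in a fit of those 4 libraries alone. The deposited FPKM did not follow the counts in DMSO, where it was 0.79 and 0.873 although the counts were 139 and 55, and 543 bases of Igfals exons overlap those of an antisense gene, Gm41549. With limma on log2(FPKM + 1), the Igfals difference in 3C against DMSO was 0.74 (adjusted p = 0.00924).

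Ghr encodes the growth hormone receptor. Its level was 57.7 and 61.4 CPM in DMSO, 81.7 and 79.3 in 3C, and 87.7 and 95.3 in 5C. The groups stood in that order without overlap. Ghr rose 1.56-fold in 5C (log2 fold change 0.64, SE 0.08, adjusted p = 0.000289) and 1.32-fold in 3C (0.40, SE 0.08, adjusted p = 0.00502) against DMSO. The rise in 3C missed the threshold without 3C replicate 1 (adjusted p = 0.0537) and on the FPKM scale (0.137 on log2(FPKM + 1) and 0.128 on log2(FPKM + 0.1), limma). Between 5C and 3C the log2 fold change was 0.24 (95% confidence interval 0.06 to 0.41, adjusted p = 0.089). Against DMSO, Igf1 thus fell where Ghr rose, in both cocktails.

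Among the binding proteins that hepatocytes make, 3 of 3 rose in each cocktail (15.6% of all genes rose in 5C and 12.7% in 3C), and Igfbp1 passed between the cocktails. Igfbp1, the binding protein that fasting raises, read 788.3 and 700.1 CPM in DMSO, 1643.1 and 1537.6 in 3C, and 975.4 and 1158.8 in 5C. All 3 groups were separate, with 5C between DMSO and 3C. Igfbp1 rose 2.09-fold in 3C (log2 fold change 1.06, SE 0.10, adjusted p = 8.2e-05) and 1.45-fold in 5C (0.54, SE 0.10, adjusted p = 0.00342) against DMSO. It was 1.44-fold lower in 5C than in 3C (log2 fold change -0.52, SE 0.10, adjusted p = 0.00964), a difference that missed the threshold without 3C replicate 1 (adjusted p = 0.089) or 5C replicate 1 (adjusted p = 0.0564).

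Igfbp2, a binding protein abundant in fetal liver, was near the limit of detection in DMSO. Its estimated counts were 31 and 15 in DMSO, 157 and 166 in 3C, and 291 and 280 in 5C, or 0.462 and 0.228, 2.37 and 2.43, and 4.21 and 4.04 CPM. The DMSO libraries stood above the floor of 12 units, which was taken to equal 3 fragments, and the 5C libraries were the highest. Igfbp2 rose 12.1-fold in 5C (log2 fold change 3.60, SE 0.38, adjusted p = 0.000107) and 6.79-fold in 3C (2.76, SE 0.37, adjusted p = 0.00059) against DMSO, folds that rest on few DMSO counts. Between the cocktails its log2 fold change was 0.83 (95% confidence interval 0.09 to 1.57, adjusted p = 0.151), and limma on log2(FPKM + 1) gave an adjusted p of 0.0479.

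Igfbp4, a binding protein that restrains IGF until the protease PAPP-A cuts it, was abundant throughout. It read 580.1 and 618.2 CPM in DMSO, 1137.1 and 1205.5 in 3C, and 1017.6 and 1005.0 in 5C. The 4 cocktail libraries all lay above DMSO. Igfbp4 rose 1.91-fold in 3C (log2 fold change 0.93, SE 0.07, adjusted p = 2.57e-05) and 1.71-fold in 5C (0.77, SE 0.07, adjusted p = 5.62e-05). Between 5C and 3C the log2 fold change was -0.16 (95% confidence interval -0.33 to 0.00, adjusted p = 0.21).

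Among the stromal binding proteins, 3 of 4 rose in 5C against DMSO and 1 of 4 in 3C, beside 15.6% and 12.7% of all genes, and the counts were not tested against each other. Igfbp3, the main carrier of IGF-1 in blood, read 301.8 and 367.0 CPM in DMSO, 408.2 and 435.6 in 3C, and 531.6 and 594.2 in 5C. The groups stood in that order without overlap. Igfbp3 rose 1.71-fold in 5C against DMSO (log2 fold change 0.77, SE 0.11, adjusted p = 0.000737). In 3C against DMSO the log2 fold change was 0.30 (SE 0.11, adjusted p = 0.0793), which passed with DESeq2 (adjusted p = 0.035). Igfbp3 was 1.38-fold higher in 5C than in 3C (log2 fold change 0.47, SE 0.11, adjusted p = 0.0234), a difference that missed the threshold without 3C replicate 1 (adjusted p = 0.176), 3C replicate 2 (0.0935) or 5C replicate 2 (0.16).

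Igfbp6, a binding protein that prefers IGF-2 to IGF-1, read 126.5 and 105.3 CPM in DMSO, 101.9 and 103.4 in 3C, and 174.4 and 153.1 in 5C. Both 5C libraries lay above the rest, and the 3C libraries lay just under the lower DMSO library. Igfbp6 rose 1.43-fold in 5C against DMSO (log2 fold change 0.52, SE 0.09, adjusted p = 0.00263) and was 1.65-fold higher in 5C than in 3C (0.72, SE 0.09, adjusted p = 0.00159). In 3C against DMSO the log2 fold change was -0.21 (SE 0.09, adjusted p = 0.149), and -0.32 without DMSO replicate 2, which leaves only the higher DMSO library.

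Igfbp7, a secreted protein of vessels and stroma that binds IGF only weakly, read 576.0 and 585.2 CPM in DMSO, 954.1 and 937.1 in 3C, and 1002.7 and 946.8 in 5C. The cocktail libraries all lay above DMSO, and 3C and 5C overlapped. Igfbp7 rose 1.70-fold in 5C (log2 fold change 0.77, SE 0.07, adjusted p = 3.37e-05) and 1.59-fold in 3C (0.67, SE 0.07, adjusted p = 9.66e-05). Between the cocktails the log2 fold change was 0.09 (95% confidence interval -0.05 to 0.24, adjusted p = 0.452). Its exons share 747 bases with those of the antisense gene Polr2b, which stood at 65.6 to 68.6 CPM on average in the 3 groups and passed in none of the comparisons.

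Igfbp5, a matrix-associated binding protein, was scarce and uneven. It read 5.09 and 1.35 CPM in DMSO, 6.11 and 8.47 in 3C, and 5.69 and 8.69 in 5C. The lower DMSO library stood apart from the other 5. The log2 fold change against DMSO was 1.19 in 5C (95% confidence interval -0.34 to 2.71, adjusted p = 0.227) and 1.15 in 3C (-0.37 to 2.68, adjusted p = 0.258). Without DMSO replicate 1, which leaves the lower DMSO library alone and takes it to vary like the other groups, it was 2.42 in 5C (adjusted p = 0.00231) and 2.39 in 3C (adjusted p = 0.00302). Between the cocktails it was 0.03 (95% confidence interval -1.45 to 1.52, adjusted p = 0.986).

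**Figure D2:**
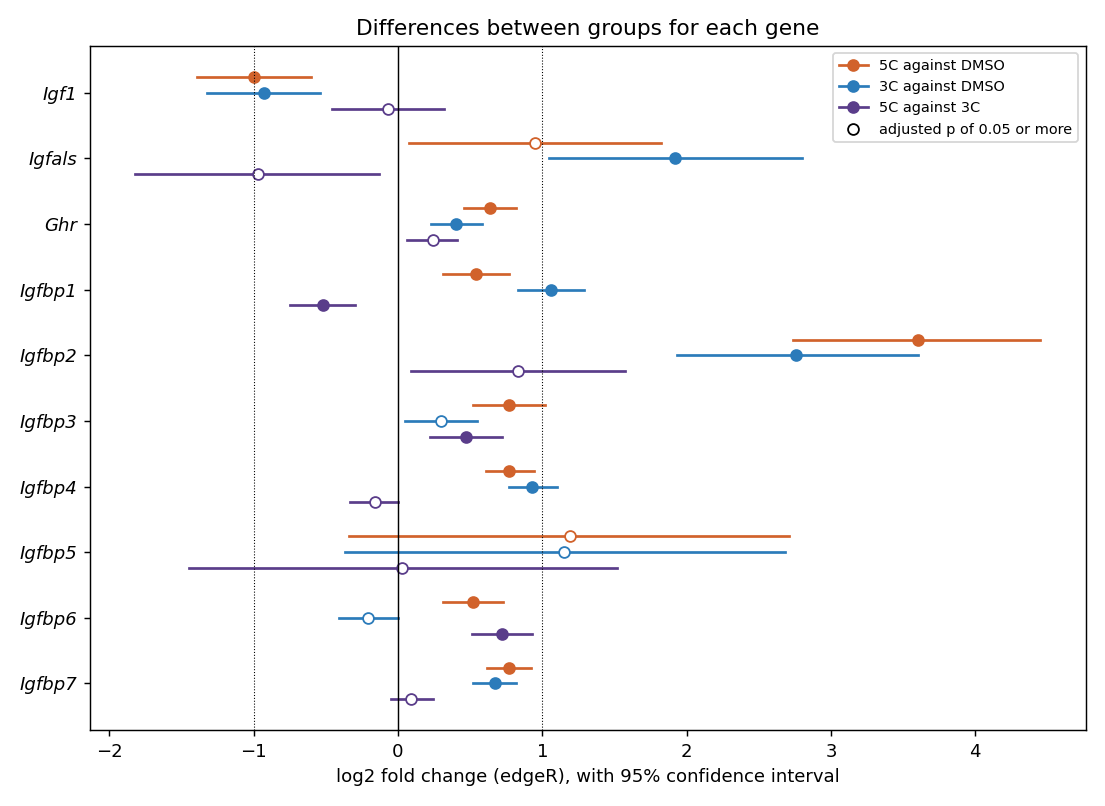
Log2 fold change (horizontal axis, edgeR) of each of the 10 genes with its 95% confidence interval for each cocktail against DMSO and for 5C against 3C, filled where the adjusted p was under 0.05 and open otherwise, with dotted lines at the fold limit of 1. Igf1 lies left of 0 in both comparisons with DMSO, Igfbp2 lies farthest to the right, and Igfbp3 and Igfbp6 lie right of 0 between the cocktails where Igfbp1 lies left.

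By class, the median log2 fold change of the hepatocyte-made binding proteins relative to DMSO was 0.77 in 5C and 1.06 in 3C, and that of the stromal ones was 0.77 in 5C and 0.49 in 3C. In 5C against 3C the median was -0.16 for the hepatocyte-made genes, with 0 higher and 1 lower of 3 (5.33% of all genes passed lower), and 0.28 for the stromal genes, with 2 higher and 0 lower of 4 (7.33% of all genes passed higher). The difference between the classes was not tested. Within the classes, Igfbp2 stood at 0.83 in 5C against 3C without passing (adjusted p = 0.151), and Igfbp7 overlapped between the cocktails.

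Summed over Igfbp1 to Igfbp7, the deposited FPKM, which is scaled for length, was 1273.7 ± 63.1 (SD, n = 2) in DMSO, 2197.5 ± 3.49 in 3C and 1992.3 ± 7.13 in 5C. The hepatocyte-made genes held 47.3% and 44.8% of that sum in the DMSO libraries, 55.5% and 54.6% in 3C, and 41.9% and 45.6% in 5C. Both 3C libraries lay above the other 4, while DMSO and 5C overlapped. With 2 libraries per group no exact test can pass 0.05, and none was run. Igfbp1 alone held 34.8% ± 2.39 of the sum in DMSO, 42.4% ± 1.32 in 3C and 31.6% ± 3.07 in 5C. Igfbp7 held 36.6% ± 1.14, 34.0% ± 0.0676 and 39.0% ± 2.46 in that order. By the deposited FPKM, Igfbp1 and Igfbp7 held the largest shares in every group. That order depends on the length, since the FPKM and counts of Igfbp7 imply 1222.1 to 1275.8 bases where its annotated exons cover 5449, and by annotated exon length Igfbp4 stood above Igfbp7 in every group. Igfbp6 took 7.43% ± 0.852 in DMSO, 3.76% ± 0.0958 in 3C and 6.67% ± 0.775 in 5C. Igfbp4 stayed at 11.3% to 12.5% and Igfbp3 at 7.11% to 10.5% on average, and Igfbp2 and Igfbp5 each held under 0.2%. Scaled by annotated exon length in place of the deposited FPKM, the hepatocyte-made share was 66.8% in DMSO, 76.6% in 3C and 65.2% in 5C, so the level of the share depends on the length used and 3C was highest with either.

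**Figure D3:**
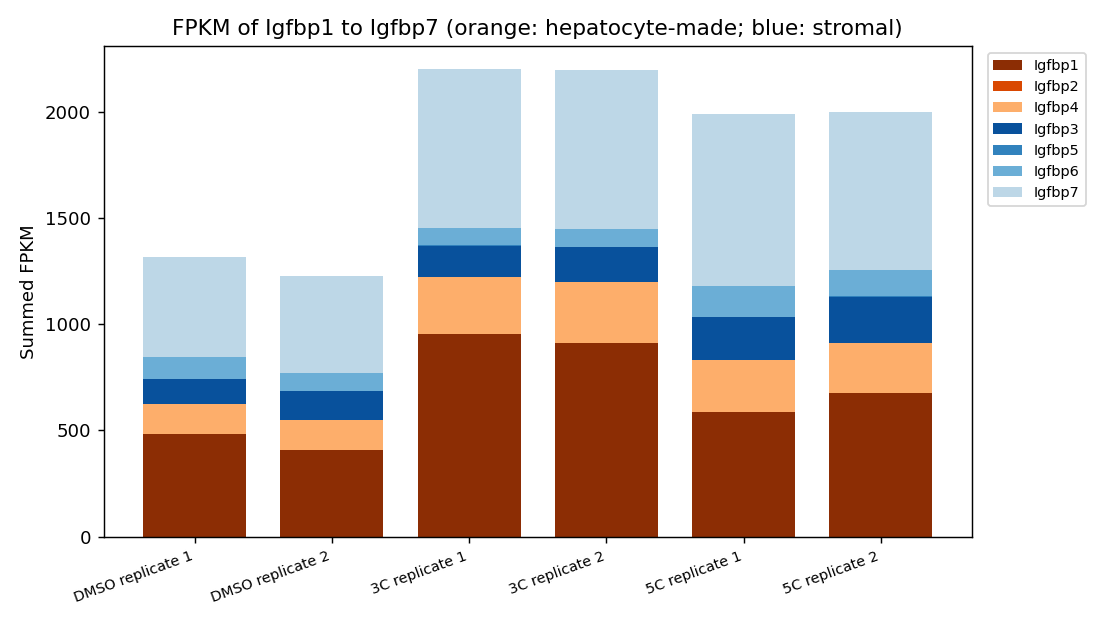
Summed FPKM (vertical axis) of Igfbp1 to Igfbp7 in each of the 6 libraries, stacked by gene, with hepatocyte-made genes in orange and stromal genes in blue. The stacks are highest in 3C (2197.5 on average) and lowest in DMSO (1273.7), and Igfbp1 and Igfbp7 fill most of each.

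Levels of cell type markers also differed between the groups. The counts below stand beside 15.6% of all genes higher and 13.1% lower in 5C against DMSO, and 12.7% and 11.8% in 3C. All 9 hepatocyte markers tested rose in each cocktail against DMSO, and their summed level was 2170.4 to 2335.0 CPM in DMSO, 11458.4 to 12120.1 in 3C and 11357.4 to 16331.9 in 5C. The summed level of 12 stellate and fibroblast markers was 7777.5 to 9097.0 CPM in DMSO, 7095.2 to 7184.2 in 3C and 11581.4 to 12602.0 in 5C, with 7 higher and 1 lower in 5C and 5 higher and 3 lower in 3C. Most of that sum came from collagen genes, with Col1a2 at 2597.3, 2327.8 and 4543.5 CPM on average in DMSO, 3C and 5C and Col1a1 at 3201.5, 2088.0 and 3774.1. The other markers did not share 1 order, and Lrat, a stellate cell enzyme, averaged 7.47, 32.6 and 17.4 CPM, highest in 3C. The 6 mesothelial markers summed to 972.0 to 1181.8 CPM in DMSO, 1257.2 to 1401.5 in 3C and 2295.1 to 2401.3 in 5C, with 6 higher and 0 lower in 5C and 2 higher and 0 lower in 3C. The 10 endothelial markers summed to 453.0 to 490.2, 190.3 to 227.5 and 250.6 to 356.7 CPM, with Clec4g at or under the floor in every group, 5 higher and 2 lower in 5C and 3 higher and 2 lower in 3C. Most of the DMSO sum was Lyve1, 1 of the lower genes, at 313.8, 72.1 and 57.6 CPM on average in DMSO, 3C and 5C. Scarcer markers went the other way, with Cdh5 at 1.16, 10.7 and 57.8 CPM, Pecam1 at 0.788, 5.94 and 31.9, and Emcn at 0.383, 1.31 and 10.2. The 6 cholangiocyte markers summed to 2902.4 to 3385.3, 3519.7 to 3706.3 and 2389.5 to 2686.9 CPM, with 5 higher and 1 lower in 5C and 4 higher and 0 lower in 3C. Most of that sum was Spp1, the 1 lower in 5C, at 2989.9, 3240.5 and 2195.9 CPM on average in DMSO, 3C and 5C. Markers of every one of these cell types were thus present in libraries labelled as hepatocytes. Their part in the results for the binding proteins, and for the gene lists described below, was not tested. The study reports that its isolation enriched tdTomato+ cells. It also reports Col1a1, Col1a2, Des, Pdgfra and Pdgfrb raised in hepatocytes of CCl4-injured mice, so a marker here need not mean a separate cell type. Which cells carried each marker was not tested.

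Around the 10 genes, the other ligand and the receptors of the family were read from a list of 5, of which 4 were tested. Igf2, the fetal ligand, stood at 2.86 and 2.08 CPM in DMSO, 59.3 and 33.2 in 3C, and 48.9 and 22.5 in 5C. All cocktail libraries lay above DMSO, and the 2 libraries of each cocktail differed widely. Igf2 rose in 5C (log2 fold change 3.87, adjusted p = 0.0118) and in 3C (4.19, adjusted p = 0.0108), but 75.8% of its 50-base words also occur in transcripts of other genes, so its counts are uncertain. The receptor of IGF-1, Igf1r, averaged 54.1, 45.9 and 55.4 CPM in DMSO, 3C and 5C, lower in 3C than in DMSO (log2 fold change -0.27, adjusted p = 0.0344) and higher in 5C than in 3C (0.32, adjusted p = 0.027). Igf2r, which clears IGF-2, averaged 198.7, 184.4 and 138.3 CPM, lower in 5C than in DMSO (-0.50, adjusted p = 0.00397) and than in 3C (-0.36, adjusted p = 0.0393). The insulin receptor gene Insr passed in no comparison, and its log2 fold changes lay between -0.14 and 0.09.

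Of 11 genes of growth hormone receptor signalling, 3 rose and 1 fell in 5C against DMSO and 1 rose and 2 fell in 3C, with medians of 0.12 and 0.10, beside 28.7% and 24.5% of all genes that passed in either direction. The kinase gene Jak2 averaged 70.3, 74.3 and 71.0 CPM in DMSO, 3C and 5C and passed in none of the comparisons, and neither did Stat5a or Stat5b, which share 12.9% and 11.1% of their words with other genes. Cish, a feedback inhibitor that STAT5 induces, averaged 3.94, 9.32 and 13.7 CPM in DMSO, 3C and 5C. It rose in 5C (log2 fold change 1.81, adjusted p = 3.01e-05) and in 3C (1.21, adjusted p = 0.000412), whereas Socs2, another such inhibitor, stood at 0.12 and -0.17 and did not pass. Socs3 was higher in 5C (0.45, adjusted p = 0.00679) and lower in 3C (-0.31, adjusted p = 0.0424) than in DMSO. Ptpn1, a phosphatase that acts on JAK2 and the insulin receptor, fell by 0.57 on the log2 scale in both. Among 7 tested targets of growth hormone and STAT5, Cish included, 5 rose and 1 fell in 5C (15.6% and 13.1% of all genes). In 3C, 4 of these targets rose and 0 fell (12.7% and 11.8%). Egfr, one of them, rose by 1.02 in 5C (adjusted p = 2.29e-05) and 0.74 in 3C (adjusted p = 0.0002) on the log2 scale, while Bcl6, which growth hormone represses, fell by 0.36 in 5C (adjusted p = 0.0109). Mup20, a male urinary protein gene, rose as well, but 49.6% of its words are shared with other genes, and Onecut1, at 37.9%, is uncertain in the same way.

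Proteases that cut the binding proteins, and the inhibitors of those proteases, made a list of 10, of which 9 were tested, and 4 rose and 2 fell in 5C (15.6% and 13.1% of all genes) and 2 rose and 4 fell in 3C (12.7% and 11.8% of all genes). Pappa, which encodes the protease PAPP-A that cuts IGFBP-4, averaged 25.9, 27.5 and 67.2 CPM in DMSO, 3C and 5C. It rose in 5C against DMSO (log2 fold change 1.40, adjusted p = 0.00397) and was higher in 5C than in 3C (1.34, adjusted p = 0.0112), while its 3C difference from DMSO was 0.06 (adjusted p = 0.892). Stc1, which encodes an inhibitor of PAPP-A, rose from 0.279 CPM to 5.57 in 5C (log2 fold change 4.33, adjusted p = 5.23e-05) and 4.02 in 3C (3.81, adjusted p = 0.000138), from few DMSO counts. Mmp7, a matrix protease, averaged 1.83, 83.3 and 65.6 CPM in DMSO, 3C and 5C and rose in both cocktails. Htra1, a secreted serine protease, fell by 0.44 in 5C and by 0.96 in 3C on the log2 scale.

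Intracellular IGF and insulin signalling held 14 genes, of which 4 rose and 1 fell in 5C against DMSO and 2 rose and 1 fell in 3C, with medians of 0.04 and -0.02, beside 28.7% and 24.5% of all genes that passed in either direction. Grb14, an adaptor that inhibits the insulin receptor, averaged 12.3, 33.3 and 34.1 CPM in DMSO, 3C and 5C and rose by 1.49 and 1.41 on the log2 scale in 5C and 3C. Its relative Grb10 was higher in 5C than in DMSO (0.57, adjusted p = 0.000443) and than in 3C (0.79, adjusted p = 0.00043). Foxo1, the factor of the insulin response element, rose in 3C (0.53, adjusted p = 0.000683) and in 5C (0.23, adjusted p = 0.0419) and was lower in 5C than in 3C (-0.30, adjusted p = 0.0267). The fasting genes that insulin represses, like Igfbp1, held 7 tested members. Of these, 5 rose in 5C and 6 in 3C and 0 fell (15.6% and 12.7% of all genes rose). Medians in 5C and 3C were 1.20 and 1.59 for this list, and 1.44 and 1.21 for the targets of growth hormone and STAT5. The 9 hepatocyte markers had medians of 2.52 and 2.51, and their part in both lists was not tested. Pck1, the gluconeogenic enzyme gene, averaged 2.39, 26.2 and 118.0 CPM in DMSO, 3C and 5C, and G6pc, which encodes the last enzyme of glucose release, averaged 2.21, 11.9 and 21.0. Both were thus higher in 5C than in 3C (log2 fold change 2.23, adjusted p = 0.0372, and 0.87, adjusted p = 0.0121), where Igfbp1 was lower.

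**Figure D4:**
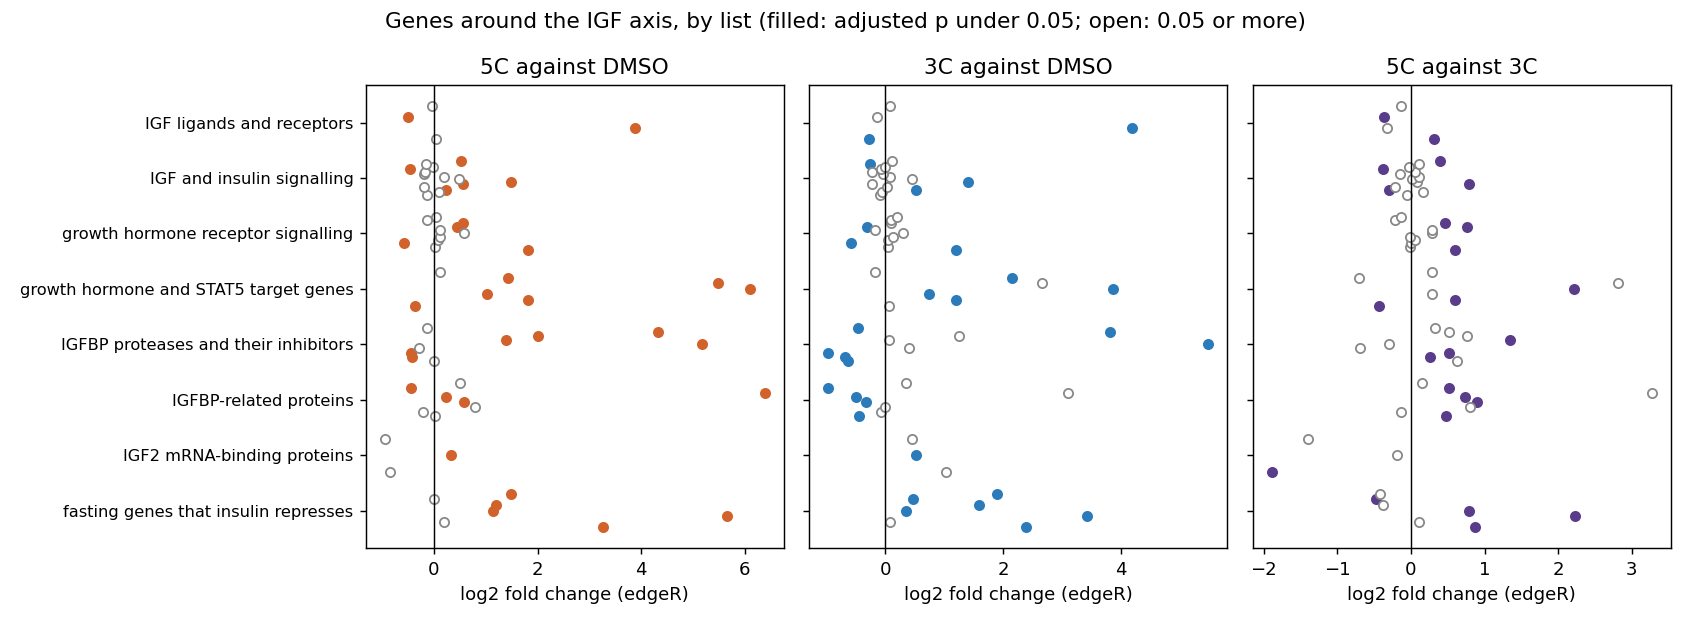
Log2 fold change (horizontal axis, edgeR) of every tested gene of 8 lists around the IGF axis in the 3 comparisons, filled where the adjusted p was under 0.05 and open otherwise. Most of the 14 signalling genes lie near 0, while fasting genes and targets of growth hormone and STAT5 lie mostly to the right against DMSO.

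Likeness of profile was measured as the Euclidean distance between centred log2 CPM values over the 6 libraries, among 10246 genes averaging at least 10 CPM. The nearest genes to Igf1 were Srgn, a granule proteoglycan gene of blood cells, Foxred2 and Gpr157, at distances of 0.191 to 0.261. Spock2, Gprin3 and Mlxipl, a glucose-sensing transcription factor gene, were nearest to Igfals, at 0.633 to 0.73. Ghr was nearest to Clybl, Eml2 and Fads1, a fatty acid desaturase gene, at 0.107 to 0.12. Igfbp1 was nearest to Nrg4, a growth factor gene, Anks4b and Tshz2, at 0.191 to 0.215. Cfhr4, Aldh1a7 and Apcs, which encodes a plasma pentraxin of the liver, were nearest to Igfbp2, at 0.243 to 0.407. These distances describe 6 libraries in 3 groups and carry no test.

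In the mouse build GRCm39, Igfbp1 (chr11:7147651-7152546, plus strand) and Igfbp3 (chr11:7156086-7164179, minus strand) lie tail to tail, 3539 bases apart with 0 protein-coding genes between them. Against DMSO their log2 fold changes were 0.54 and 0.77 in 5C and 1.06 and 0.30 in 3C, and in 5C against 3C Igfbp1 was lower and Igfbp3 higher. Igfbp2 (chr1:72863606-72891634, plus strand) and Igfbp5 (chr1:72897091-72914043, minus strand) lie the same way, 5456 bases apart with 0 protein-coding genes between. Both were scarce, and Igfbp2 passed against DMSO where Igfbp5 did not, a difference between the genes that was not tested.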

How the data were processed

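RNA was sequenced from 6 libraries of cultured dHeps, 2 each of DMSO, 3C and 5C, grouped by their labels. The authors deposited a table of estimated counts per gene, whole numbers that were not normalized, and a table of FPKM, scaled by the authors for length and library total. The submitters' processing notes name featureCounts, Subread, DESeq2 and the build GRCm39, and their versions and the strand setting are not given in the sources used here. Low estimated counts had an excess of entries at 4 (4816, beside 3121 at 3 and 2303 at 5), so 1 fragment was assumed to stand for 4 units. Entries of 1 were more common still (6338), which whole fragments of 4 units would not give, so the unit remains an assumption. The floor of 3 fragments, or 12 units (0.173 to 0.182 CPM), rests on it and covers counting error only.

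Estimated counts were tested with edgeR 4.0.16 in R 4.3.3 (quasi-likelihood F test, robust, TMM normalization, filterByExpr, 1 coefficient per group, all 6 libraries, 3 residual degrees of freedom, common biological coefficient of variation 18.4%). CPM are counts over the library total. SE is the value implied by F, and confidence intervals are at 95%. Alternatives used DESeq2 1.42.0, limma 3.58.1 on FPKM, other normalizations and filters, a replicate block, counts divided by 4, and leaving out each library. A fit without 1 library leaves 1 library in that group, which is taken to vary like the other groups. A crossed block was added after the data had been seen. Steps were tested on simulated data, and figures drawn with matplotlib 3.10.9.

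The 10 genes, the lists, the tests and the naming rule were chosen with earlier results of these data known. All 10 genes are described, with up to 3 genes per list and comparison, those of largest absolute log2 fold change among genes passing and averaging at least 1 CPM, and the 3 nearest profiles for Igf1, Igfals, Ghr, Igfbp1 and called members. Other list genes (Insr, Jak2, Stat5a, Stat5b, Socs2, Egfr) were named after their values were seen. Positions come from the GENCODE annotation of GRCm39 and promoters from RefSeq (GRCm38.p6). Sharing of 50-base words between transcripts was at most 2.24% for the 10 genes.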

Additional observations from a re-analysis of the deposited data

How the results depend on the processing

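Of 490 alternative values for the 10 genes, 466 kept their direction and side of the threshold, 8 dropped out of the threshold, 11 came within it and 5 reversed. With no limit on the fold change, 8, 7 and 3 of the 10 genes and 5485, 4689 and 2423 of all genes passed for 5C and then 3C against DMSO and for 5C against 3C, beside calls of 1, 3 and 0 members and 2242, 1809 and 576 genes. On log2(FPKM + 1) with limma, 1231, 958 and 261 genes were called. In 5C against DMSO, 2 members were called with RLE, no filter, DESeq2 and both FPKM fits, since Igf1 lies at the fold limit. Leaving out 1 library gave 1 to 4 members and 1923 to 2191 genes in 5C against DMSO, 2 to 5 members and 1535 to 1784 genes in 3C against DMSO, and 0 members and 381 to 642 genes in 5C against 3C. The 4 and 5 members came without DMSO replicate 1, where Igfals and Igfbp5 are low in the remaining DMSO library, and the 381 genes without 5C replicate 2. The hepatocyte-made share of the binding proteins was 56.5%, 65.2% and 54.9% (DMSO, 3C, 5C) by summed CPM and 66.8%, 76.6% and 65.2% by exon length. The reversed values were all in 5C against 3C and none passed: Igfbp5 at -0.01 and -0.02 on FPKM, and, among fits that left out 1 library, Igf1 (-0.31 to 0.22, with 0.22 without 3C replicate 2) and Igfbp5 (-0.33 to 0.31, with -0.33 without 5C replicate 2 and -0.18 without 3C replicate 1).

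The replicate numbers are shared by name only, and deviations of same-numbered libraries correlated at -0.117 (DMSO and 3C), 0.0234 (DMSO and 5C) and 0.0438 (3C and 5C) over 14393 genes. With the replicate block, 2125, 1737 and 536 genes and 1, 3 and 0 members were called in the order above, and Igfbp3 in 3C against DMSO came within the threshold (log2 fold change 0.31, adjusted p = 0.0187), the one of the 10 genes whose side of the adjusted p threshold the block changed. Crossing the numbers in 3C against DMSO gave 1714 genes and 3 members. With 2 libraries a group, Igfals, Igfbp2 and Igfbp5 had the widest intervals of the 10 genes, and folds of Igfbp2 rest on 15 to 31 DMSO counts.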

Other observations

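The proteins related to the IGF binding proteins were read from a list of 9 genes, of which 8 were tested. In 5C against DMSO 3 rose and 1 fell (15.6% and 13.1% of all genes), and in 3C 0 rose and 4 fell (12.7% and 11.8% of all genes), with medians of 0.38 and -0.20. Ccn4, a matricellular protein gene of the same fold, averaged 65.0, 53.0 and 95.6 CPM in DMSO, 3C and 5C, and was higher in 5C (log2 fold change 0.58, adjusted p = 0.00131) and lower in 3C (-0.33, adjusted p = 0.0284) than in DMSO. Ccn5 averaged 66.7, 48.7 and 77.9 CPM, with log2 fold changes of 0.24 (adjusted p = 0.0295) and -0.49 (adjusted p = 0.000937). In 5C against 3C both were higher, by 0.90 (adjusted p = 0.000567) and 0.73 (adjusted p = 0.000472) on the log2 scale. Esm1, an endothelial secreted proteoglycan gene, read 0.179 and 0.531 CPM in DMSO, 1.15 and 5.1 in 3C, and 25.6 and 32.8 in 5C, and rose in 5C against DMSO (log2 fold change 6.38, adjusted p = 0.0162), from a DMSO library at the floor.

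Of the 3 genes for IGF2 mRNA-binding proteins, 1 rose in each cocktail against DMSO (15.6% of all genes rose in 5C and 12.7% in 3C). Igf2bp2 averaged 38.8, 56.8 and 48.1 CPM in DMSO, 3C and 5C (log2 fold change 0.33, adjusted p = 0.0172, in 5C and 0.52, adjusted p = 0.00179, in 3C). Igf2bp1, a fetal form, averaged 1.61, 3.37 and 0.875 CPM and was lower in 5C than in 3C (-1.89, adjusted p = 0.0082).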
